A study of Mus musculus with 2 samples.

Results

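The clustered protocadherins are neighbouring genes on mouse chromosome 18 that fall into the Pcdha, Pcdhb and Pcdhg clusters. They were taken as all genes there whose symbols start with Pcdha, Pcdhb or Pcdhg in the mm9 gene models, which gave 25 of the 37310 annotated genes. Those models give most exons of the Pcdha and Pcdhg clusters no name of their own, so the measured units were the 58 variable exons, 14 in Pcdha, 22 in Pcdhb and 22 in Pcdhg. They were followed in 2 RNA-Seq libraries of whole brain from F1 hybrid mouse embryos at E17.5. In BxC the mother was C57BL/6J and the father CastEi/J, which the paper writes CAST/EiJ. In CxB the strains of the parents were exchanged. By the methods the CxB brain was male and BxC brains of both sexes were dissected, with no statement of which 1 gave the BxC library. Chromosome Y held 1852 reads on 319 lines in BxC and 18212 reads on 7336 lines in CxB. The few Y lines in BxC are what a female brain would give, so sex probably differs along with the cross. Each cross has 1 library here, from 1 brain, so there is no replicate spread, no test between the crosses was made, and every interval covers counting error only. The intervals take each read as independent, so they are too narrow where reads are repeats.

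Protocadherins are adhesion molecules of the cadherin superfamily that lie in the membrane of neurons, where the clustered ones bind the same isoform on a facing cell and help a neuron tell its own branches from those of other neurons. Each Pcdha or Pcdhg mRNA joins 1 variable exon, which has its own promoter and codes for the extracellular and transmembrane parts, to 3 constant exons that code for a shared cytoplasmic end. Each Pcdhb gene is a single exon with no constant part. The alternate isoforms are chosen from promoters bound by CTCF and cohesin, in a combination that varies from neuron to neuron, whereas the C-type isoforms Pcdhac1, Pcdhac2, Pcdhgc3, Pcdhgc4 and Pcdhgc5 at the ends of the clusters are under separate control.

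The files hold 36-base reads placed on mm9, on 36575945 lines in BxC and 31155725 in CxB. With the count on each line taken as a number of identical reads, they hold 128944754 and 109719746 reads. Both numbers are above the mean yield per library that the methods state, and the reason is not known. All levels, shares and intervals by reads rest on this reading of the count. Over the coding part of the 58 variable exons lay 67822 and 56544 reads, which were 526 and 515 in every 1000000 reads of the library. Reads identical in position were listed on a single line, and the 2 totals came from 25525 and 20853 distinct lines. All but 1 of the exons, 57 of 58, held at least 100 reads in each library. The exception was Pcdhb1, with 16 and 4 reads. Pcdhgb8, which RefSeq lists as a pseudogene and which has no open reading frame here, was counted over a window of the median Pcdhg exon length and held 588 and 477 reads.

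The exons resemble each other in sequence, and this decided where reads could be placed. Every unspliced read inside a variable exon began at a 36-base window that occurs only 1 time in mm9, for 64867 reads in BxC and 54207 in CxB. The share of such windows was 100% in the C-type exons, in Pcdhb1 and in Pcdhga7. It was lowest in Pcdha7, at 65.5%, and had a median of 79.8% in Pcdha, 85.9% in Pcdhb and 97.4% in Pcdhg. Among Pcdhg exons the A types had a median of 98.2% and the B types 80.4%. Reads from shared windows are not in the counts below, and levels were also taken per unique window.

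Depth and unique windows were also followed along the exons. Each exon was cut into 10 equal segments from its 5′ to its 3′ end. In the Pcdha cluster the seventh segment had a median of 36.8% unique windows, and its depth was 0.16 of the exon mean in BxC and 0.15 in CxB. The second segment, with 57.5% unique windows, was at 1.08 and 1.05 times the exon mean, so low uniqueness and low depth did not always go together. In Pcdhb the sixth segment was the deepest, at 2.11 and 1.91 times the exon mean, and the eighth segment was at 0.37 and 0.39, with 69.9% unique windows. In Pcdhg the eighth segment was at 0.54 and 0.52 although 92.6% of its windows were unique, so the depth along these exons also varied where reads could be placed.

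**Figure D1:**
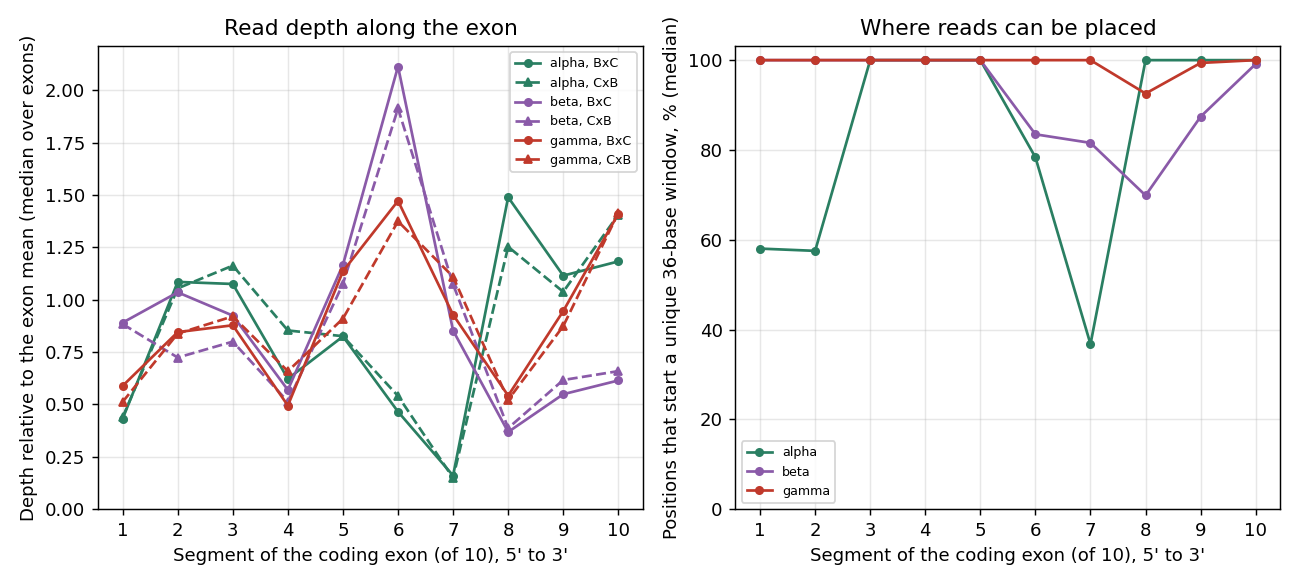
Read depth relative to the exon mean (left, median over the exons of each cluster, solid lines and circles for BxC, dashed lines and triangles for CxB) and the share of positions that start a unique 36-base window (right, percent), by segment, from 1 at the 5′ end to 10 at the 3′ end of the coding exon. The Pcdha curves fall to 0.16 and 0.15 of the mean in the seventh segment, where 36.8% of windows are unique.

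Levels are given as RPKM, reads per kilobase of coding exon per 1000000 reads of the library. In the Pcdha cluster the C-type exons differed widely in level. Pcdhac2 (chr18:37303623-37306184) was the highest, at 10.4 RPKM in BxC (95% Poisson interval 10.1 to 10.8) and 11.2 in CxB (10.8 to 11.6). Pcdhac1 (chr18:37249790-37252225), the other C-type exon, was at 0.672 RPKM in BxC (0.584 to 0.769) and 0.617 in CxB (0.527 to 0.719). It was the lowest exon in BxC and second lowest in CxB, just above Pcdha8. The 12 alternate exons lay between 0.690 and 2.75 RPKM in BxC and between 0.612 and 2.95 in CxB. Pcdha5 was the highest alternate, at 2.75 and 2.95 RPKM. Pcdha12, the last alternate in the cluster, was at 2.71 and 2.75, and Pcdha3 was at 2.58 and 2.81. The lowest alternates were Pcdha8, at 0.690 and 0.612 RPKM, and Pcdha10, at 0.863 and 0.643. Pcdha1, the first exon of the cluster, was at 1.50 and 1.09 RPKM.

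The height of Pcdhac2 depended on which part of the exon was read. The first of the 10 segments of its coding exon held 49.9% of its reads in BxC and 52.8% in CxB, whereas the median over the 14 Pcdha exons was 4.22% and 4.62%. Of the Pcdhac2 reads in that segment, 6.40% and 6.77% were on the sense strand, against 43.6% and 40.9% in the rest of the exon. The skew was smaller without repeated reads. By distinct positions the first segment held 26.4% of the Pcdhac2 lines in BxC and 27.3% in CxB, and the sense share was 30.5% and 27.4% there, against 49.6% and 45.9% in the rest. Strand skews of the first segment were not particular to Pcdhac2. By reads, the sense share there was 5.56% and 5.88% at Pcdhb9, against 46.4% and 50.3% in the rest. At Pcdhb20 it was 91.2% and 93.3%, against 25.8% and 27.8%. The kilobase before the coding start of Pcdhac2 was also covered, at 14.4 and 15.3 RPKM. Without the first segment Pcdhac2 was at 5.70 and 5.74 RPKM, and it remained the highest Pcdha exon in both libraries, ahead of Pcdha12 in BxC at 2.91 RPKM and Pcdha5 in CxB at 3.08. Its share of the summed Pcdha level was 30.6% in BxC and 32.8% in CxB over the whole exon, and 18.8% and 19.4% without the first segment, a reading chosen after seeing the data. From sense reads alone the share was 20.3% and 20.4%. Its share of the Pcdha joins described below, which come from the opposite end of the exon, was 27.9% in BxC (20.6 to 36.3) and 29.5% in CxB (22.2 to 37.5). By distinct positions 15 of 80 joins in BxC and 14 of 73 in CxB were its own, or 18.8% (10.9 to 29.0) and 19.2% (10.9 to 30.1).

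The Pcdhb exons spanned a narrower range apart from Pcdhb1. Pcdhb17 (chr18:37644813-37647212) was the highest, at 4.70 RPKM in BxC (4.46 to 4.95) and 4.46 in CxB (4.21 to 4.72). Pcdhb22, the last exon of the cluster, followed at 3.01 and 3.03 RPKM, and Pcdhb20 at 2.94 and 2.64. These 3 held 28.9% and 29.4% of the summed Pcdhb level. Pcdhb1 (chr18:37424652-37427108), the first exon, was at 0.0505 RPKM in BxC (0.029 to 0.082) and 0.0148 in CxB (0.0040 to 0.0380), although all of its windows are unique. The next lowest by the mean of both libraries, Pcdhb14 and Pcdhb15, were at 0.802 and 1.08 RPKM in BxC and at 0.875 and 0.850 in CxB. The median over the 22 exons was 1.42 and 1.40 RPKM.

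The Pcdhg cluster held most of the reads, 45681 of 67822 in BxC and 38315 of 56544 in CxB. Pcdhgc3 (chr18:37966202-37968631) was the highest of all 58 exons, at 37.1 RPKM in BxC (36.4 to 37.7) and 37.2 in CxB (36.4 to 37.9). Pcdhgc4 (chr18:37975187-37977637) followed at 22.2 (21.7 to 22.8) and 22.0 (21.4 to 22.6), and the alternate exon Pcdhga11 (chr18:37915595-37918021) at 14.3 (13.9 to 14.7) and 11.9 (11.5 to 12.3). These 3 held 50.4% of the summed Pcdhg level in BxC and 49.4% in CxB. The last C-type exon, Pcdhgc5 (chr18:37979329-37981788), was far below its neighbours at 3.64 RPKM in BxC (3.43 to 3.86) and 4.34 in CxB (4.10 to 4.60).

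The alternate Pcdhg exons come in an A type and a B type that differ in sequence. The 12 A exons had a median of 3.99 RPKM in BxC and 4.05 in CxB, and the 7 B exons, the pseudogene Pcdhgb8 among them, 3.50 and 2.97. Per unique window the medians were 3.85 and 4.03 for A, and 4.36 and 3.57 for B. Without Pcdhgb8, a reading chosen after seeing the data, the 6 B exons had medians of 3.57 and 3.42 RPKM, and of 4.47 and 4.31 per unique window. The order of the types thus turned with the divisor in BxC, and without the pseudogene in both libraries. The lowest exons by the mean of both libraries were Pcdhgb8, at 1.88 and 1.80 RPKM, Pcdhga5, at 2.10 and 2.09, and Pcdhgb2, at 1.86 and 2.35. Pcdhga1, the first exon, was at 2.14 and 2.30 RPKM, and Pcdhga12, the last alternate, at 5.22 and 6.11.

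Set against the annotated protein-coding genes of the same libraries, with reads per kilobase of whole gene model, Pcdhgc3 lay above 95.4% of 22380 genes in both BxC and CxB. Pcdhac2 lay above 80.8% and 82.1%, Pcdhb17 above 66.4% and 65.4%, and Pcdhb1 above 26.4% and 21.8%. In whole brain, fewer cells that use an isoform and less RNA per cell cannot be told apart.

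**Figure D2:**
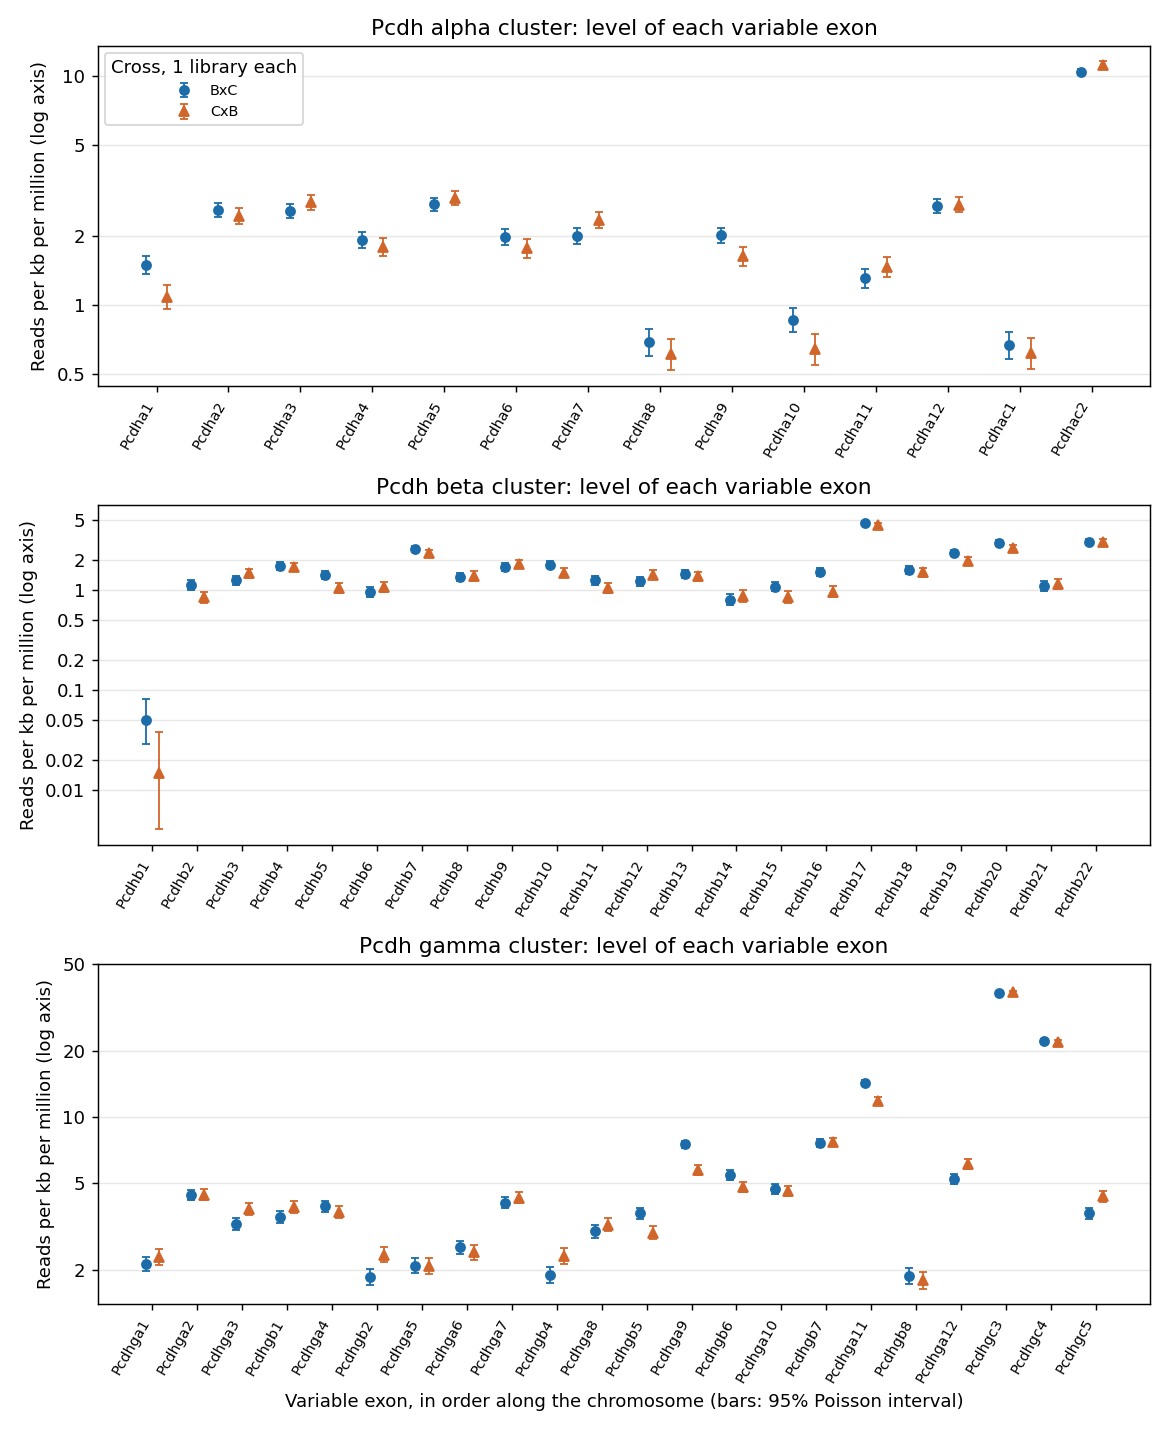
Level of each variable exon in RPKM (log axis) in order along the chromosome for the Pcdha, Pcdhb and Pcdhg clusters, with circles for BxC, triangles for CxB and 95% Poisson intervals as bars. Pcdhac2 stands at 10.4 and 11.2 above the other Pcdha exons, Pcdhb1 falls to 0.0505 and 0.0148, and Pcdhgc3, Pcdhgc4 and Pcdhga11 lead the Pcdhg cluster.

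Most pairs of exons next to each other in level had overlapping intervals. Overlap is not a test of a difference, and the intervals treat repeated reads as independent. No pair is therefore called ranked or unranked from it. Of 13 neighbouring pairs in the order of Pcdha levels, 9 had overlapping intervals in each library. In Pcdhb 17 of 21 pairs overlapped in BxC and 18 in CxB, and in Pcdhg 14 of 21 in each. The order itself was shared by the libraries. Across the exons of a cluster, Spearman's rho between the BxC and CxB levels was 0.95 in Pcdha (n = 14), 0.88 in Pcdhb (n = 22) and 0.96 in Pcdhg (n = 22). These coefficients describe exons that share 2 libraries, the same windows and the same lengths.

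The level was also read against the position of the exon along the cluster. In Pcdhg the higher levels lay toward the 3′ end, with a Spearman's rho of 0.53 in BxC and 0.56 in CxB (n = 22). Without the 3 C-type exons, which lie last, rho was 0.44 and 0.42 (n = 19). In Pcdhb rho was 0.40 in both libraries (n = 22). In Pcdha it was -0.09 and -0.11 (n = 14), and -0.18 and -0.25 for the 12 alternates alone. The points of each coefficient come from 1 library and are not independent replicates.

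Reads outside the variable exons gave a background for these levels. Between the exons the Pcdha cluster was at 0.117 RPKM in BxC and 0.126 in CxB, the Pcdhb cluster at 0.125 and 0.114, and the Pcdhg cluster at 0.667 and 0.691. The pooled variable exons were 21.0 and 19.7 times, 13.4 and 13.7 times, and 9.98 and 9.50 times higher. At least 1 kilobase on either side of each exon was left out of this background. It covered 151 kilobases in Pcdha, 143 in Pcdhb and 52.5 in Pcdhg. With nearly all bases kept, the stretch from Pcdhgc3 to Pcdhgc4 was at 3.50 and 3.23 RPKM. The stretch from Pcdhac2 to the first constant exon was at 0.123 and 0.114. Each exon was then set against the mean of 1 kilobase on either side, leaving out the 100 bases next to it. The median of this ratio was 8.94 and 8.05 in Pcdha, 3.43 and 2.86 in Pcdhb, and 9.48 and 10.04 in Pcdhg. Flanks can hold untranslated parts of the mRNA, before the coding start in Pcdha and Pcdhg and on either side in Pcdhb.

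Some exons stood little above the mean of their flanks. Pcdhgc5 had the lowest ratio in Pcdhg, at 1.72 in BxC and 1.78 in CxB, with flanks at 2.12 and 2.43 RPKM. Pcdha8 had the lowest in Pcdha, at 1.34 and 0.95, with flanks at a mean of 0.52 and 0.65 RPKM. That exon was above the kilobase before it, at 0.217 and 0.246 RPKM, and below the kilobase after it, at 0.814 and 1.05. Pcdhac2 was at 1.45 and 1.44, through the covered kilobase before its start, and Pcdhb5 was below the mean of its flanks, at 0.69 and 0.59. With the exon at 1.41 and 1.05 RPKM, the kilobase before Pcdhb5 was at 0.349 and 0.529. The kilobase after it was at 3.76 and 3.04. By contrast Pcdhgc3 was 15.9 and 11.6 times above its flanks, Pcdhgc4 8.94 and 8.05 times, and Pcdhac1, the lowest Pcdha exon in BxC, 4.12 and 5.02 times.

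**Figure D3:**
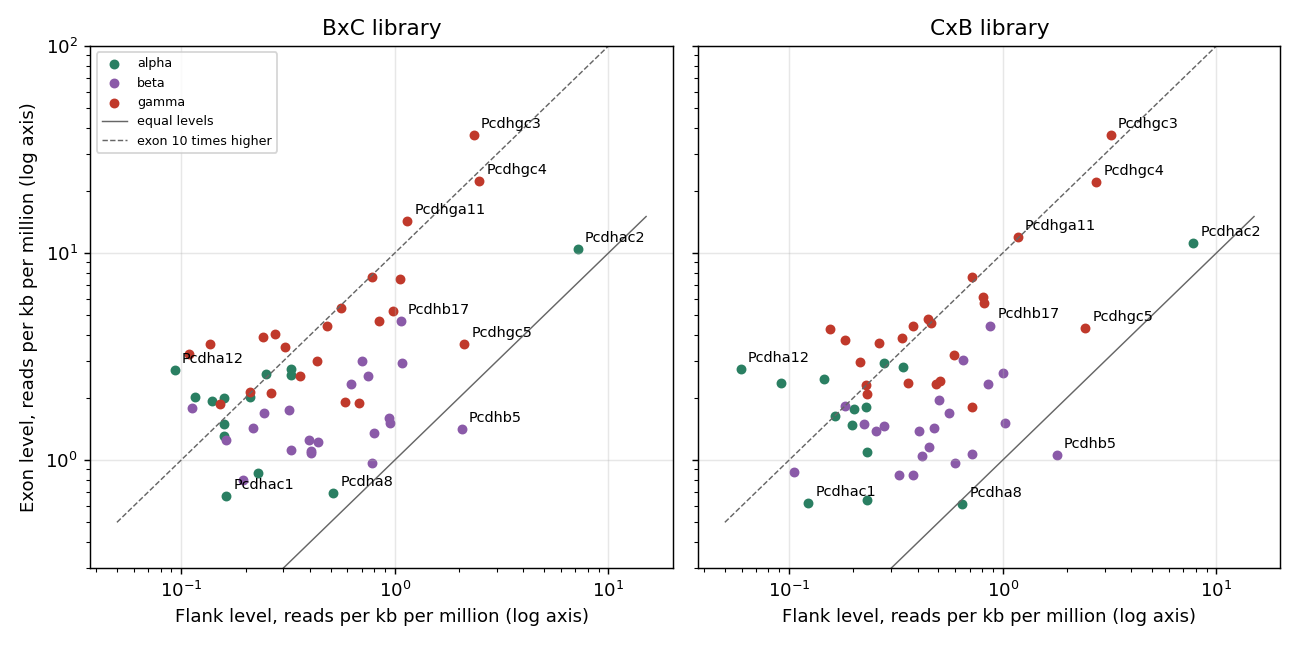
Level of each variable exon against the mean level of its 1-kilobase flanks, both in RPKM on log axes, for BxC (left) and CxB (right), coloured by cluster. The solid line marks equal levels and the dashed line a ratio of 10; Pcdhb1 is left out. Pcdhgc5 lies near the solid line, at ratios of 1.72 and 1.78, while Pcdhgc3 lies at 15.9 and 11.6.

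Reads that are split over a splice join tell which variable exons were attached to constant exons. The junction sequences offered to the aligner came from gene models with a limited number of skipped exons, so joins outside that set may be missing. In Pcdha 136 reads in BxC and 146 in CxB joined a variable exon to the first constant exon (chr18:37315809-37315867), and in Pcdhg 1116 and 828 reads did so (chr18:37984675-37984733). Joins were present for 36 of 36 Pcdha and Pcdhg exons in BxC and 35 of 36 in CxB. Pcdha8 was the exception, with 2 joined reads in BxC and 0 in CxB, where a count of 0 allows up to 3 reads. The 2 bases after each of the 36 edges were GT, the usual start of an intron. The edges had been located by such joined reads of either library, so the number of exons with joins was largely set by how they were found, and nothing is read from it.

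The C-type share of the joins was set beside their share of the exon level. In Pcdha they held 32.6% of the summed exon level and 29.4% of joins in BxC (95% exact Clopper-Pearson interval 21.9 to 37.8), and 34.6% and 31.5% in CxB (24.1 to 39.7). In Pcdhg they held 43.1% of the level and 41.1% of joins in BxC (38.2 to 44.1), and 44.1% and 44.2% in CxB (40.8 to 47.7). These shares moved with what was counted, in readings chosen after seeing the data. Without the first segment the C-type share of the level was 20.9% in BxC and 21.5% in CxB in Pcdha, and 42.1% and 43.1% in Pcdhg. By distinct positions the C-type share of joins was 21.3% in BxC (12.9 to 31.8) and 21.9% in CxB (13.1 to 33.1) in Pcdha, and 32.9% (27.05 to 39.2) and 28.9% (22.8 to 35.7) in Pcdhg. The share of the level by distinct positions was 23.3% and 23.1% in Pcdha, and 34.9% and 35.1% in Pcdhg. Distinct positions have a ceiling, since at most 27 windows on each strand can place a joined read at an edge. Pcdhgc3 held 46 join lines in BxC and 38 in CxB, so this count can lower the C-type share. At some edges a part of these windows was shared with another exon. Pcdhgb5 and Pcdhgb6 had the fewest windows of their own, 20 each, which can lower their joins. Pcdhac2 had the most joins in Pcdha, 38 in BxC and 43 in CxB. Pcdhgc3 had the most in Pcdhg, 250 and 209, followed by Pcdhgc4 with 207 and 154. In BxC Pcdhga11 with 95 and Pcdhga2 with 93 were next by reads. In CxB Pcdhgb2 was next with 64, and Pcdhga11 and Pcdhga2 had 53 each. The Pcdhga2 reads lay on 9 lines in each library. That is fewer in BxC than the 12 of Pcdhga10 and of Pcdhgb7, and fewer in CxB than the 11 of Pcdhga4. The place of Pcdhga2 thus held in neither library by distinct positions.

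Joins and exon reads did not move together for every exon. Per 1000 exon reads, the median was 12.8 joined reads in BxC and 14.3 in CxB in Pcdha, and 21.4 and 16.6 in Pcdhg. Pcdhgc5 was far under this, with 2 and 3 joined reads, or 1.73 and 2.56 per 1000, on 1155 and 1172 exon reads. Unspliced reads crossing the same edge numbered 2 and 1. Pcdhgc3 and Pcdhgc4, both also free of shared windows, had 21.5 and 29.5 joined reads per 1000 in BxC, and 21.1 and 26.0 in CxB.

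Pcdhgb2, which is among the lowest Pcdhg exons, had the most joins for its reads, 43 in BxC and 64 in CxB, or 74.4 and 103 per 1000. These reads lay on 8 and 12 lines. By distinct positions it had 28.6 joins per 1000 exon lines in BxC, beside 27.7 at Pcdhga8 and 26.1 at Pcdhga6, and 45.5 in CxB, beside 32.0 at Pcdhga5, so in BxC it did not stand apart by this count. Pcdha12 was at the opposite end in Pcdha in BxC, with 2 joined reads, or 2.39 per 1000, and 4 in CxB, or 5.54. Pcdha3 had 20 and 22 joined reads, or 25.4 and 30.1 per 1000. Pcdhgb8 had 6 joined reads and 1 unspliced read at its edge in BxC, and 1 and 6 in CxB. The 6 unspliced reads in CxB lay on 1 line. The exons Pcdha3 and Pcdhb5 were named after their values were seen.

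**Figure D4:**
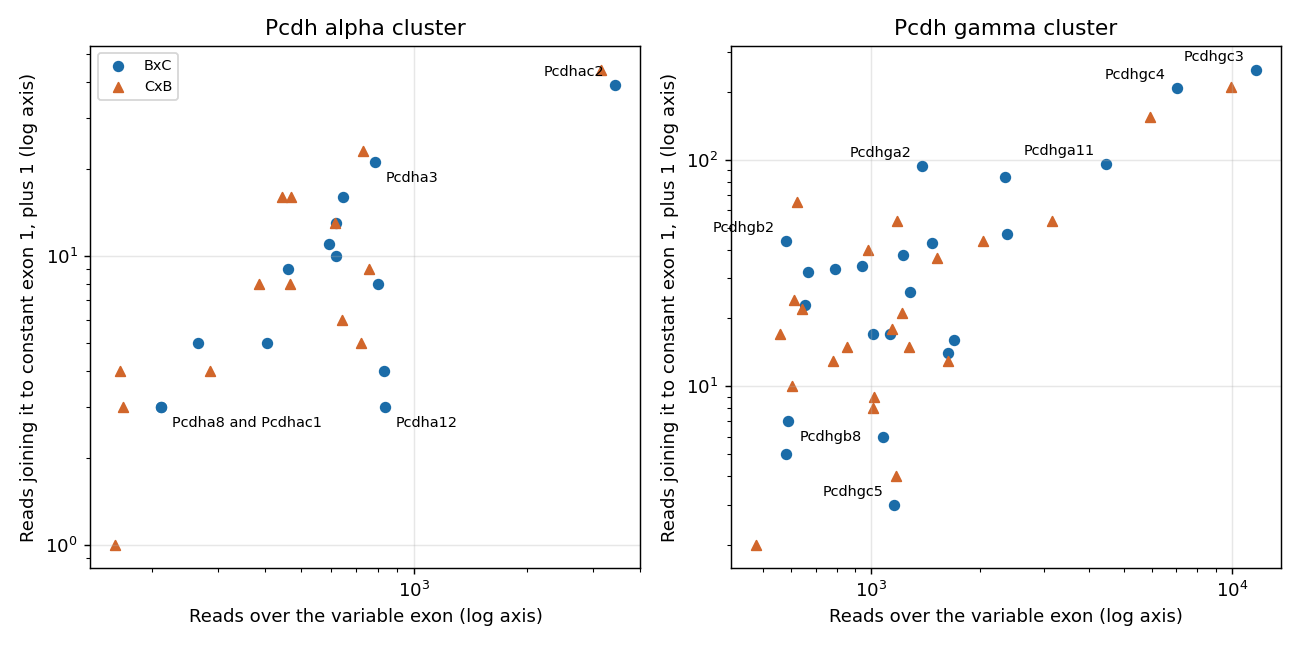
Reads joining each variable exon to the first constant exon, plus 1, against reads over the variable exon, both on log axes, for Pcdha (left) and Pcdhg (right), with circles for BxC and triangles for CxB. Pcdhgc3 and Pcdhgc4 hold the most joins, with 250 and 207 in BxC, and Pcdhgc5 lies low, with 2, for its 1155 exon reads.

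A few joins left this pattern. In BxC 1 read joined Pcdha4 to the first constant exon of Pcdhg. In each library 1 read joined Pcdha1 to the third constant exon of Pcdha, and in CxB 2 reads joined Pcdhga11 to the second constant exon of Pcdhg. An edge at position 37984318, outside the named exons, was joined to the first constant exon of Pcdhg by 9 reads in BxC and 2 in CxB.

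The constant exons were nearly always found joined to each other. In Pcdha 48 and 43 reads joined the first to the second constant exon and 91 and 51 the second to the third, with 0 unspliced reads at these edges. In Pcdhg the same joins held 805 and 665, and 203 and 191 reads, against 2 and 7, and 1 and 1 unspliced reads. Within the last constant exon of Pcdha, 49 reads in BxC and 43 in CxB skipped 428 bases, from 37344701 to 37345130 on chromosome 18, across the end of the coding sequence at 37344910. Against 128 and 105 reads that crossed the upstream edge unspliced, this join made up 27.7% in BxC (21.2 to 34.9) and 29.1% in CxB (21.9 to 37.1).

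The depth of the last constant exon was compared with the summed depth of the variable exons of its cluster, a ratio that would be 1 if every transcript held both and coverage were even. In Pcdha it was 1.17 in BxC and 1.25 in CxB, and over bases that only unique windows cover 1.03 and 1.12. In Pcdhg it was 2.29 and 2.21, and over such bases 2.22 and 2.14. The first and second constant exons of Pcdhg, at 1.19 and 0.74 in BxC and 1.14 and 0.75 in CxB, were lower than the last. For Pcdha they were at 0.69 and 1.18 in BxC, and at 0.59 and 1.15 in CxB. In each cluster these exons are 59 and 89 bases long, against 1971 for the last in Pcdhg and 2712 in Pcdha. With 36-base reads their depth rests more on reads split over joins than that of the last exon. The part of this in the ratios was not tested.

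The methods describe a protocol that keeps the strand, but the reads were spread over both strands. A sense read here is one that lies on the strand of the gene. Whether the protocol gives reads of that strand or of the opposite strand was not checked. The median share of sense reads was 43.1% in BxC and 43.0% in CxB over the 57 exons with enough reads, beside 44.0% and 43.3% over annotated genes with enough reads. Reads on either strand were therefore summed, and RNA of the opposite strand could not be separated. The annotated gene Gm10545 on the opposite strand shares 2340 bases with the exon of Pcdha11 and 450 with Pcdha12. The long non-coding RNA Gm16882 shares 2418 bases with Pcdhga10, 629 with Pcdhgb7, 1171 with Pcdhga11 and 308 with Pcdhga12. Their part in the levels of these exons was not tested.

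No variable exon with enough reads passed 2-fold between the crosses. Of the 57 exons with at least 100 reads in each library, 0 were more than 2-fold higher in CxB and 0 were less than 1/2 of BxC. Among 15427 annotated genes with as many reads, 0.0713% were above 2-fold and 0.0648% below 1/2, so nothing about the exons is read from the counts of 0. The median log2 ratio of CxB over BxC was -0.03 for the 57 exons, with a range of -0.64 to 0.34. For the annotated genes the median was -0.0011, with the 5th and 95th percentiles at -0.29 and 0.28. The median was -0.09 in Pcdha (n = 14), -0.08 in Pcdhb (n = 21) and 0.00 in Pcdhg (n = 22).

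Of the C-type exons, Pcdhgc3 and Pcdhgc4 had ratios by reads nearest to 0. The log2 ratio was 0.00 for Pcdhgc3 (95% interval -0.03 to 0.04), -0.02 for Pcdhgc4 (-0.07 to 0.03), 0.10 for Pcdhac2 (0.03 to 0.17) and 0.25 for Pcdhgc5 (0.14 to 0.37). By distinct positions the ratio of Pcdhac2 turned to -0.059, and that of Pcdhgc4 was -0.11. For Pcdhac1 it was -0.12, with an interval of -0.42 to 0.18 on 211 and 165 reads. Pcdhb16 had the lowest ratio among the 57, at -0.64 (-0.87 to -0.42), with 467 reads in BxC and 255 in CxB. Pcdhgb2 had the highest by reads, at 0.34 (0.17 to 0.50), with 578 and 622 reads, but by distinct positions it was at 0.15, and Pcdhga12 was then the highest, at 0.26. Pcdhga11, the alternate exon with the highest level, was at -0.26 (-0.33 to -0.20), and at -0.13 by distinct positions. The sign of the ratio differed between these counts for 10 of the 57 exons. Pcdhb1 was at -1.77 on its 16 and 4 reads, with an interval of -3.81 to -0.13, and is outside the minimum. With 1 library per cross, a difference between embryos, sexes or preparations cannot be told apart from one between crosses.

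**Figure D5:**
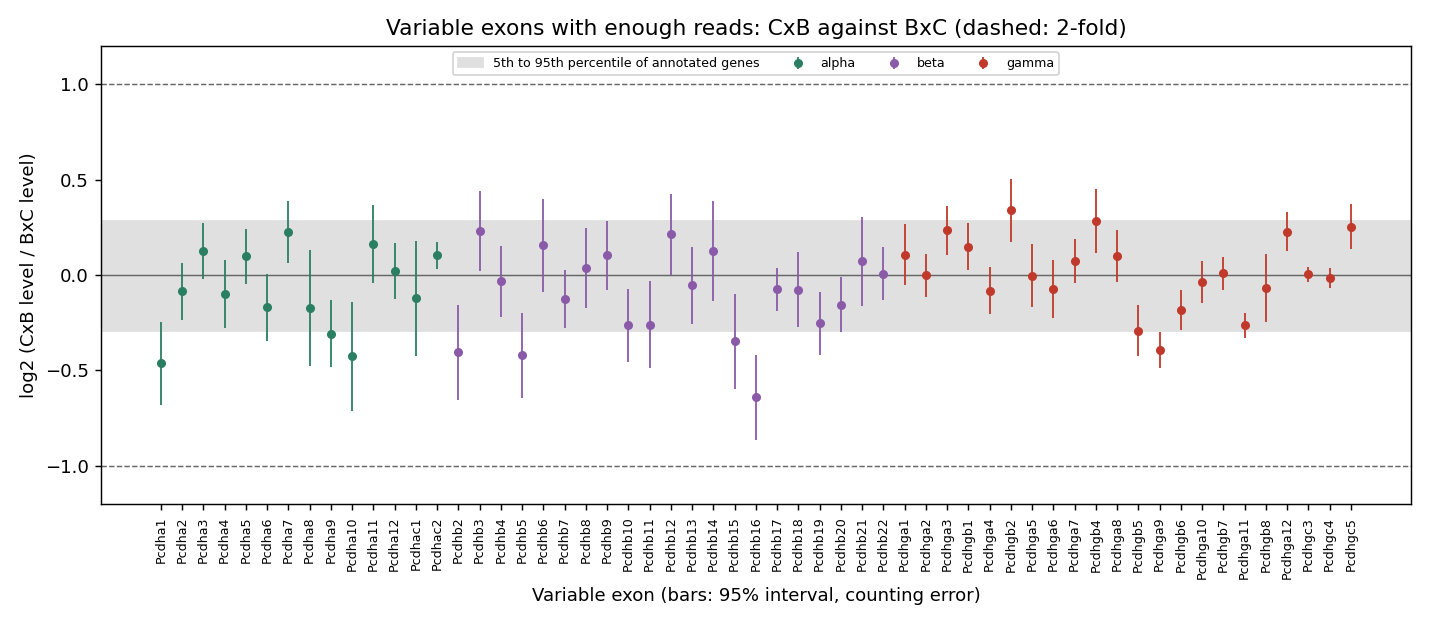
The log2 ratio of CxB over BxC for the 57 variable exons with at least 100 reads in each library, in chromosome order and coloured by cluster, with 95% intervals for counting error. The grey band runs from -0.29 to 0.28, the 5th to 95th percentile of annotated genes, the dashed lines mark 2-fold, and no exon reaches them.

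Genes that act with the clusters were measured in both libraries. With 0.136% of annotated genes past 2-fold, the counts of 0 in the lists that follow say nothing particular about them. Of 15 factors that bind or modify their promoters and enhancers, 0 passed 2-fold in either direction, and the median log2 ratio was 0.02, from -0.17 to 0.22. Ctcf, which binds the promoters of most alternate exons, was at 24.0 RPKM in BxC and 23.3 in CxB, and the cohesin subunit Rad21 at 39.3 and 39.99. Dnmt3b, a DNA methyltransferase, was at 0.445 and 0.446 RPKM. Smchd1, which acts in gene silencing, was at 3.88 and 3.96 RPKM, and Wapal, which releases cohesin from DNA, at 5.65 and 6.15.

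The non-clustered protocadherins lie outside the 3 clusters and have no shared constant exons. By symbol 12 of 13 were matched, and 0 of 12 passed 2-fold, with a median log2 ratio of 0.01 and a range of -0.13 to 0.14. Pcdh10 was at 26.9 and 27.9 RPKM of its whole gene model, and Pcdh12, which is known from endothelium, at 0.612 and 0.647. Of 13 signalling and processing partners, 0 passed 2-fold, with a median of 0.03 and a range of -0.09 to 0.24. Among them the kinase Fyn was at 60.6 and 62.3 RPKM, and Adam10, the protease that cleaves Pcdhg proteins, at 22.2 and 24.4.

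Of 10 genes next to the clusters, 9 had enough reads and 0 passed 2-fold, with a median log2 ratio of -0.09 and a range of -0.23 to 0.15. Taf7, between Pcdhb and Pcdhg, was at 1.38 and 1.54 RPKM. Of 26 cell type markers, 25 were matched and 20 had enough reads, with a median log2 ratio of 0.01 and a range of -0.51 to 0.32. Of the neuronal markers Tubb3 was at 974 and 840 RPKM, Stmn2 at 343 and 355, Dcx at 68.1 and 74.5 and Snap25 at 16.4 and 16.9, while Map2 was not matched. Markers of liver were at or near 0, with Alb at 0 and 45 reads and Afp at 3 and 3. Of the other markers from outside the brain, Krt5 held 5 and 44 reads and Myh3 138 and 96. Blood markers were lower in CxB, Alas2 by a log2 ratio of -0.51, Hbb-b1 of -0.30 and Hba-a1 of -0.28. Among glial and choroid plexus markers the log2 ratio was 0.32 for Aqp4, 0.16 for Gfap, 0.15 for Ttr, -0.0010 for Olig2 and -0.15 for Pdgfra. Among progenitor markers it was 0.07 for Fabp7, 0.05 for Nes, 0.03 for Sox2, -0.02 for Vim and -0.08 for Pax6. The endothelial markers Cldn5 and Pecam1 were at 0.09 and -0.13, and the microglial marker Csf1r was at -0.04. The part of these markers in the ratios of the protocadherin exons was not tested.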

How the data were processed

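The deposited alignments used here hold 1 library per cross, each from 1 whole brain, and other libraries of the study are not analysed here. By their methods the authors placed 36-base reads by Novoalign on the genome as well as on transcript models and sequences spanning exon joins, gave all positions in mm9 and kept reads with a unique place. The models were UCSC known genes, and the aligner's version is not given in the sources used here. The deposited alignments hold, on each line, a whole-number count, taken here from its values as the number of identical reads; 0 columns could not be assigned. The authors' catalog of imprinted genes was not used. Samples were grouped by the cross in the labels.

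Edges of Pcdha and Pcdhg variable exons were taken from reads joined to the first constant exon and their starts from the open reading frame of at least 2000 bases. The mm9 gene models (GENCODE vM1) hold 41 of the 58 exons. Exons were named by their order in RefSeq, which has equal numbers of genes; spacings of 55 neighbouring pairs differed by at most 459 bases, and the 23 exons with their own mm9 name matched. Only coding bases were counted, since the untranslated parts are not annotated for all. Reads on either strand were counted, where the design had sense reads, because reads of annotated genes lay on both strands (median sense share 44.0% and 43.3%); sense reads are an alternative. Depth was 128944754 reads in BxC and 109719746 in CxB, and 3 reads are the limit that a count of 0 allows. Poisson and Clopper-Pearson intervals were at 95%, and reads from PCR are not independent molecules. Python 3.11.15, numpy 2.4.6, pandas 2.3.3, scipy 1.17.1 and numba 0.67.0 were used, and the ratio and its interval were tested on simulated data.

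Named exons are the C-type, the 3 highest and 3 lowest of each cluster, and its first and last alternate. Exons past 2-fold and those with most joins are also named. Pcdhb16, Pcdha3, Pcdhb5, Pcdhgb2's ratio and the unusual joins were chosen after their values were seen. So were Pcdha7, Pcdhga7, Pcdhb9, Pcdhga4, Pcdhga6, Pcdhga8, Pcdhga10, Pcdhgb7 and the strand skew of Pcdhb20. Pcdha11 was named for the gene on the opposite strand. The members and lists were chosen with earlier results of these data known. Alternatives were distinct positions, sense reads, reads wholly inside exons, covered bases, minimums of 1, 10 and 1000 reads, the 3′ part of exons, joins as readout, edges within 5 bases, C-type exons left out and other totals. No sequences are printed.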

Additional observations from a re-analysis of the deposited data

How the results depend on the processing

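No paired analysis was possible because each cross has 1 library, and for the same reason no replicate could be left out. Counting distinct positions in place of reads left 80 and 73 joins in Pcdha and 243 and 204 in Pcdhg, for BxC and CxB, and moved the pooled sense share of the variable exons from 42.4% to 48.2% in BxC and from 41.5% to 47.3% in CxB. Without C-type exons rho of level and position became -0.25 in Pcdha and 0.42 in Pcdhg in CxB. With a minimum of 1 read, 1 exon passed 2-fold, Pcdhb1. The share of annotated genes past 2-fold, 0.136% at 100 reads, was 2.26% at 10 and 0.0300% at 1000. Over the 3′ part of the variable exons, the ratio of the last constant to the variable exons was 1.31 and 1.42 in Pcdha and 1.90 and 1.87 in Pcdhg. Over bases that only unique windows cover, an alternative chosen after seeing the data, it was 1.03 and 1.12, and 2.22 and 2.14. By distinct positions the share of Pcdhac2 was 20.6% and 20.7%, that of Pcdhb17 9.25% and 9.72% and that of Pcdhgc3 18.6% and 19.0%. The number of distinct positions in an exon is limited, so this count can lower the shares of the highest exons. The log2 ratio of Pcdhac2, 0.10 by reads, turned to -0.059 by distinct positions and to -0.030 from sense reads. The cause of these changes was not tested. The number of exons with enough reads was 51 to 58 over its alternatives, and the median log2 ratio of the exons stayed between -0.08 and -0.03. Joins rested on few reads, since 8 of 36 exons in BxC and 7 in CxB had at most 4 joined reads.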
